A study of Mus musculus with 12 samples.

Results

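The genes described here are the mouse transcription factor genes of the Sox, GATA and T-box families. Members were the genes with a numbered Sox or Tbx symbol or with one of the symbols Gata1 to Gata6, and 4 symbols of these families were left out by the rule. This gave 34 members, of which 16 were Sox, 6 were GATA and 12 were T-box genes. Of these, 29 stood among the 17885 genes of the Eed iKO table and all 34 among the 21915 genes of the hair cycle table. Sox3, Sox14, Sox17, Tbx10 and Tbx19 were listed in the hair cycle table only.

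RNA was sequenced from hair follicle stem cells (HFSCs) of mouse skin, sorted as EpCAM+, Sca1-, CD34+ cells with high α6-integrin, in 12 libraries of 4 groups with 3 libraries each. All mice were C57BL/6J. Control mice were 70 days old, labelled wildtype, and according to the methods received ethanol. The libraries labelled Eed iKO came from 70-day-old K15-CrePGR; Eed fl/fl mice, labelled Eed -/-, that received topical RU-486 at 10 mg/ml, 100 µl a day for 7 days from day 50. In these mice a hormone-inducible Cre driven by the keratin 15 promoter, active in the bulge of the hair follicle, is used to remove Eed from HFSCs. Eed encodes a core subunit of Polycomb repressive complex 2 (PRC2). Genotype and RU-486 against ethanol changed together and cannot be told apart. Anagen mice were wildtype and 28 to 30 days old, telogen mice were wildtype and 50 to 52 days old, so growth phase and age cannot be told apart either. The methods name more animals for each phase than the 3 libraries in the labels, and pooling was not stated. P-values therefore measure the spread between libraries.

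Sox proteins bind DNA through an HMG box, GATA proteins through zinc fingers that read GATA motifs, and T-box proteins through the domain that names them. Many of these genes set cell identity in the embryo, and many are textbook targets of PRC2, which places the repressive mark H3K27me3 on developmental regulators. In the hair follicle, Gata3 is known for its role in the inner root sheath, Sox21 for the hair shaft cuticle and Tbx18 for the dermal papilla. The comparisons ask whether members changed when HFSCs moved from rest (telogen) to growth (anagen), and whether they differed between control HFSCs and the HFSCs labelled Eed iKO.

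The Eed iKO table held 33269583 to 57063586 recovered reads per library, and 1 read was worth 0.694 to 1.33 normalized counts. The hair cycle libraries summed to 11370984 to 13186648 normalized counts and their depth is unknown. Eed itself had 1084, 1249 and 950.2 normalized counts in the control libraries and 933.3, 1361 and 1001 in the libraries labelled Eed iKO, a log2 fold change of -0.01 (SE 0.22, limma adjusted p = 0.993). These values overlapped between the groups. Which exons the deletion removes is not given in the sources used here, and a level summed over the whole gene does not check the deletion. The 10 bulge markers summed to 1067000 to 1286000 normalized counts in the Eed iKO table. In the hair cycle table they summed to 400300 to 490000 in 5 libraries and to 211100 in telogen replicate 1. Krt15 made up most of each hair cycle sum, with 142400 in telogen replicate 1 and 344700 to 422400 in the other hair cycle libraries. Col17a1, the next highest marker in telogen, had 38420 in replicate 1 against 40190 and 35640 in replicates 2 and 3.

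Gata3 and Sox21 were the members with the highest level per kilobase of transcript in all 4 groups. Gata3 had 3140 ± 353 normalized counts per kb in control and 3060 ± 197 in Eed iKO libraries (mean ± SD, n = 3), at percentiles 94.5 and 94.2 of all genes. In the hair cycle table it had 372 ± 152 in telogen and 490 ± 200 in anagen. Sox21 followed with 512 ± 70.2 in control, 367 ± 72.8 in Eed iKO, 167 ± 18.8 in telogen and 149 ± 18.0 normalized counts per kb in anagen. The ranges of Gata3 and Sox21 did not overlap in any group. The tables were normalized separately, so levels are not compared across them.

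Below these genes stood Sox13, Gata6, Sox7 and Sox12, whose ranges overlapped in the control libraries. Sox13 had 196 ± 76.0, Sox7 had 167 ± 73.3 and Sox12 had 142 ± 32.8 normalized counts per kb there. In anagen, Sox4 was the third member in the order with 57.0 ± 62.9 normalized counts per kb, and in telogen it was member 20 with 1.13 ± 0.632. The large SD in anagen came with a range of 19.9 to 130 normalized counts per kb, which overlapped that of Sox13 (26.9 to 49.3).

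**Figure D1:**
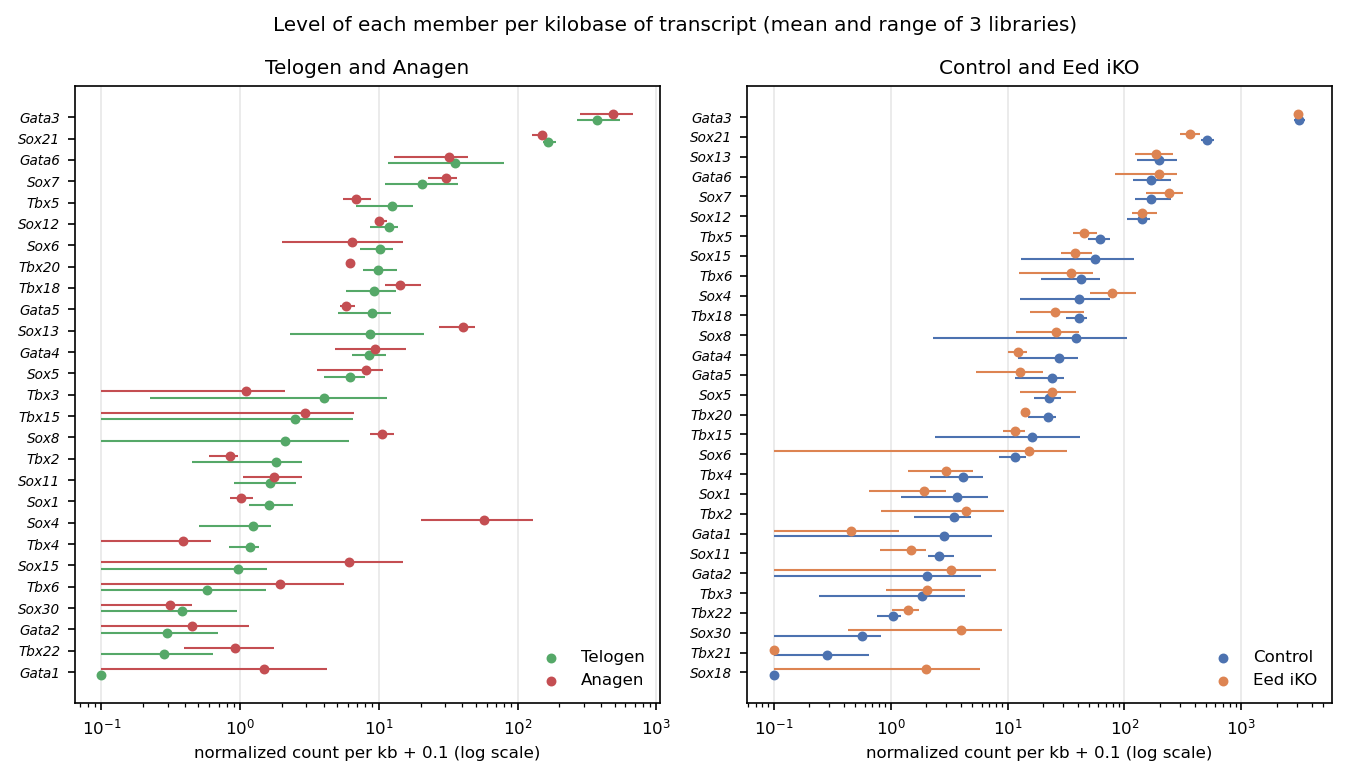
Level of each member with a value above 0, as normalized counts per kb of transcript plus 0.1 on a log axis, for the hair cycle table (left) and the Eed iKO table (right). Points are means and lines the range of 3 libraries. Gata3 and Sox21 stood highest in every group, and Sox4 moved from 1.13 in telogen to 57.0 in anagen.

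At the other end, 7 members were listed at 0 in every hair cycle library, as were 4202 genes of that table. These were Sox3, Sox14, Sox17, Sox18, Tbx10, Tbx19 and Tbx21. Sox17 and Sox18 are Sox genes of the vascular endothelium, Tbx19 acts in the pituitary and Tbx21 encodes the T-cell factor T-bet. In the Eed iKO table, Sox18 was above 0 in 1 library (Eed iKO replicate 2, 9.296 normalized counts) and Tbx21 in 1 library (control replicate 1, 1.388). Gata1 and Gata2, known from blood cells, reached at most 7.254 and 18.59 normalized counts. The endothelial markers Cdh5 and Cldn5 were also listed at 0 in all hair cycle libraries.

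Between telogen and anagen, Sox4 and Sox13 were higher in anagen, while the members highest per kb, Gata3 and Sox21, did not pass the test. Of the 34 members, 16 passed the filter on low values and were tested, with 9 of 16 Sox, 4 of 6 GATA and 3 of 12 T-box genes. Of the 16, 2 were called at a limma adjusted p under 0.05, both higher in anagen, against a background of 11.6% of the 13457 genes tested (7.22% higher in anagen). By the thresholds in the methods of the study, read as an unadjusted p under 0.05 with a log2 fold change beyond 2, 3 members passed (Sox4, Sox13 and Sox8), all higher in anagen, against 5.1% of all genes (3.33% higher in anagen). Sox4 and Sox8 passed the filter on low values through the anagen libraries alone, and Sox13 through 3 anagen libraries and 1 telogen library, so this count and its direction are a description. The same 3 were the members with an unadjusted p under 0.05, against 27.3% of all genes.

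Sox4, a SoxC gene expressed in many progenitor cells, had 1.943, 6.668 and 7.596 normalized counts in the telogen libraries and 102.4, 95.65 and 621.5 in the anagen libraries. All anagen libraries lay above all telogen libraries, and anagen replicate 3 stood far above the other anagen libraries. The log2 fold change was 4.99 (SE 0.78, 95% confidence interval 3.27 to 6.71, limma adjusted p = 0.00269), 31.8-fold on the log2(value + 1) scale. Without anagen replicate 3 it was 4.11 (limma adjusted p = 0.0167). Sox4 lies on chromosome 13 at 28948919 to 28953713 (GRCm38, minus strand), and 54.6% of its exon bases overlap the lincRNA Gm26735 on the opposite strand. Whether the counting used strand is not given in the sources used here, so reads of the 2 genes may not be told apart.

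The other SoxC genes did not pass the test. Sox11, which acts beside Sox4 in neural and mesenchymal progenitors, had a log2 fold change of 0.11 (SE 0.73, 95% confidence interval -1.50 to 1.71) with 6.667 to 20.26 normalized counts in telogen against 7.87 to 22.36 in anagen. Sox12 had -0.21 (SE 0.47, interval -1.25 to 0.82). Of 4 genes reported as direct SoxC targets, 3 were tested, 0 passed the limma test and 0 had an unadjusted p under 0.05. Ezh2, the PRC2 methyltransferase and one of these targets, had a log2 fold change of 0.33 (SE 0.28, limma adjusted p = 0.478).

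Sox13, a SoxD gene that binds DNA but lacks a known activation domain, had 6.362, 6.671 and 61.27 normalized counts in telogen against 132.5, 78.2 and 143.3 in anagen. The groups did not overlap, but telogen replicate 3 lay closer to the lowest anagen library than to the other telogen libraries. The log2 fold change was 2.92 (SE 0.78, 95% confidence interval 1.20 to 4.64, limma adjusted p = 0.0359). This call was lost when any 1 library other than telogen replicate 3 was left out, with log2 fold changes of 2.40 to 3.19 and limma adjusted p of 0.0778 to 0.134. Without telogen replicate 3 the log2 fold change was 3.94 (limma adjusted p = 0.00361). Sox13 lies on chromosome 1 at 133382303 to 133424377 (minus strand) and shares no exon bases with another gene.

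The other SoxD genes did not pass the test. Sox6, known from cartilage and muscle, had 50.42, 59.8 and 34.51 normalized counts in telogen against 71.22, 10.49 and 9.094 in anagen, so that anagen replicate 1 lay above all telogen libraries and the other anagen libraries below them. Its log2 fold change was -1.24 (SE 0.76, limma adjusted p = 0.318), with -2.16 without anagen replicate 1 (limma adjusted p = 0.111) and -0.74 without anagen replicate 3. Sox5 had a log2 fold change of 0.28 (SE 0.65).

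Sox8, a SoxE gene known from neural crest and glia, was listed at 0 in telogen replicates 1 and 3 and had 8.877 normalized counts in replicate 2, against 14.96, 12.49 and 18.71 in anagen. The groups did not overlap. The log2 fold change was 2.92 (SE 1.03, 95% confidence interval 0.65 to 5.18, limma adjusted p = 0.0949), which passed the thresholds of the study but not the adjusted test. Because of the telogen libraries at 0 the size depends on the pseudocount, and it was 5.09 with a pseudocount of 0.1 (limma adjusted p = 0.117). Without telogen replicate 2 it was 4.02 (limma adjusted p = 0.0271). Sox8 lies on chromosome 17 at 25565892 to 25570686 (minus strand), with 10.6% of its exon bases shared with an antisense gene.

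Among the remaining Sox genes, Sox21, a SoxB gene that represses transcription, did not pass the test. It had 714.2, 610.1 and 577.2 normalized counts in telogen against 594.1, 615.8 and 487.9 in anagen, a log2 fold change of -0.16 (SE 0.23, limma adjusted p = 0.678). Sox7, a SoxF gene known from endothelium, had 35.88, 122.3 and 43.03 in telogen and 105.6, 74.17 and 119.7 in anagen, and its log2 fold change of 0.76 (SE 0.52) did not pass the test.

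Of the GATA genes, Gata3 had 1062, 520.7 and 587.6 normalized counts in telogen against 1324, 548.8 and 984.7 in anagen. The groups overlapped, with a log2 fold change of 0.38 (SE 0.35, 95% confidence interval -0.40 to 1.16, limma adjusted p = 0.526). Gata6, known from epithelial ducts, Gata4 and Gata5, known from heart and endoderm, had log2 fold changes of 0.24, -0.003 and -0.52 and none passed the limma test. Of 6 tested GATA cofactors and zinc finger relatives, 1 was called. This was Trps1, a GATA-type repressor known from hair growth, which was higher in anagen by 0.85 (SE 0.18, limma adjusted p = 0.0132). Of 8 tested HMG-box relatives, 1 was called, namely Tcf7, a WNT pathway factor, which was higher in anagen by 1.90 (SE 0.39, limma adjusted p = 0.011).

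Of the T-box genes, Tbx20, known from the heart, had 50.59, 28.89 and 31.66 normalized counts in telogen against 22.82, 24.15 and 22.83 in anagen. The groups did not overlap, and the log2 fold change was -0.61 (SE 0.53, limma adjusted p = 0.498). It was 1 of 4 tested members whose groups did not overlap, with Sox4, Sox13 and Sox8, against 33.3% of all genes tested (18.1% higher in anagen). Tbx18 and Tbx5, a limb and heart gene, had log2 fold changes of 0.62 (SE 0.51) and -0.74 (SE 0.64). Tbx4, a limb gene, was too low to be tested, with 3.876, 2.222 and 3.796 normalized counts in telogen against 1.577, 0 and 1.041 in anagen. Tbx3, also not tested, had 55.62 in telogen replicate 3 and at most 9.81 in the other libraries.

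**Figure D2:**
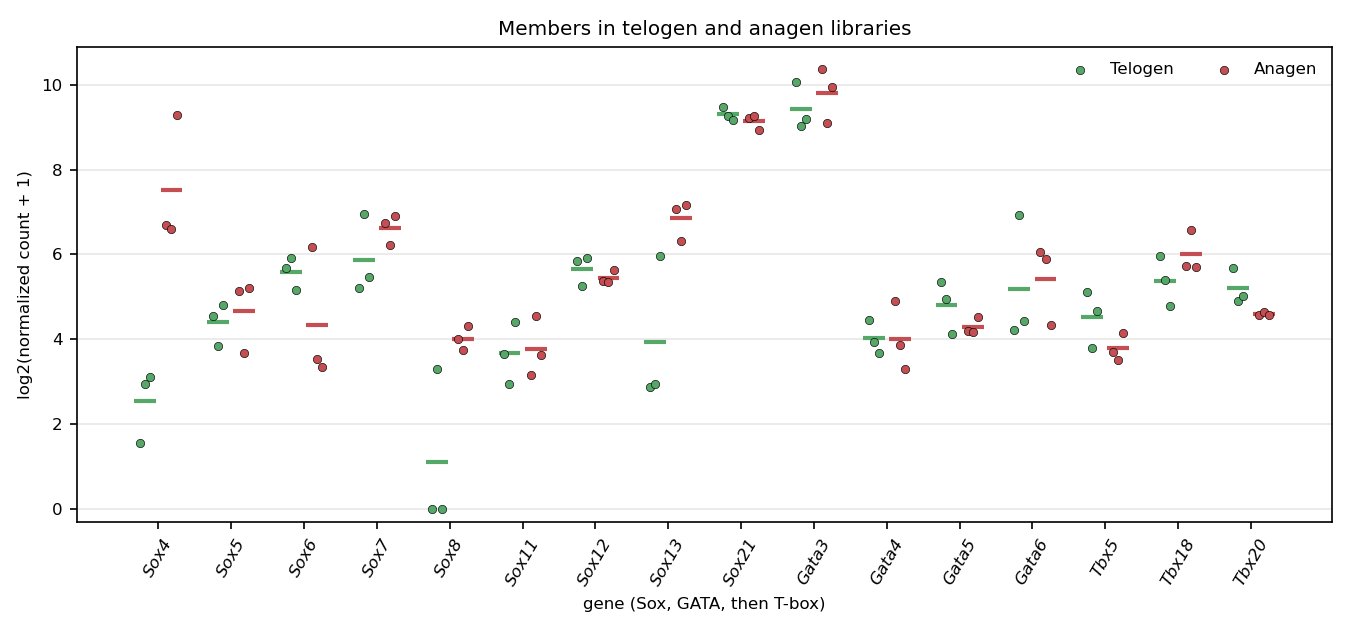
Log2(normalized count + 1) of the 16 tested members in each hair cycle library, with telogen in green, anagen in red and bars for the means of 3 libraries. Sox4, Sox8 and Sox13 lay higher in all anagen libraries, and telogen replicate 3 of Sox13 stood apart at 61.27 normalized counts.

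Other genes moved with the phase. All 8 proliferation genes were higher in anagen by the limma test, with a median log2 fold change of 4.95, and their sum was 2105 to 3496 normalized counts in telogen against 21030 to 33590 in anagen. Of the 7 inner root sheath genes, 5 were tested and 4 were called as higher in anagen, against 7.22% of all genes tested. Their sums were 52.44 to 154.4 in telogen and 395.2 to 1348 in anagen. Bub1, Krt27 and Krt28 had at most 5.115, 4.437 and 2.216 normalized counts in telogen. They passed the filter on low values through the anagen libraries alone, so their direction is a description. Anagen replicate 3, with the highest Sox4, had the lowest sum of both lists among the anagen libraries. In the same library the bulge, dermal and leukocyte lists had their highest sums of the group (482100, 634.4 and 127.7 normalized counts). So did the T-box genes outside the rule (4450). Of 10 bulge markers, Cd34 was lower and Itga6 higher in anagen. Of 10 endothelial markers, 4 were tested with a median log2 fold change of -0.23, and only Tek was called (2.98, higher). Vwf, Tie1 and Pecam1 had -0.48, -0.38 and -0.08. The list sums were 101.1 to 174.3 in telogen and 177.8 to 214 in anagen. Tek held 5.115 to 17.57 and 62.01 to 74.72 of these. Of 10 dermal markers, 4 were tested, and Col1a1 and Dcn were called as higher in anagen. Dcn had at most 1.467 normalized counts in telogen and also passed the filter through anagen alone. The other tested markers, Col1a2 and Pdgfra, had negative log2 fold changes and were not called (limma adjusted p = 0.108 and 0.586). Col1a2 had 233.4, 599.7 and 346.1 normalized counts in telogen against 154.1, 228.7 and 171.7 in anagen. The dermal list summed to 330 to 654.5 in telogen and 485.8 to 634.4 in anagen, and Lox was listed at 0. The part of these lists in the Sox4, Sox8 and Sox13 differences was not tested. In these bulk libraries, fewer cells of a type and less RNA per cell cannot be told apart.

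Of the 6 melanocyte markers, 5 were tested and 2 were called, in opposite directions, with a list median of 1.34. Mitf was lower in anagen, with a log2 fold change of -1.85, and Dct higher, with 2.51 (limma adjusted p = 0.000254 and 0.00187). The list summed to 2882 to 3285 in telogen and 1410 to 1488 in anagen, and most of the telogen sum was Mitf, at 2801, 3125 and 2963 normalized counts. None of the 4 tested leukocyte genes or the 6 suprabasal genes was called by limma, and 0 had an unadjusted p under 0.05. Of the 4 tested sebaceous genes, Awat2 was lower in anagen.

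**Figure D3:**
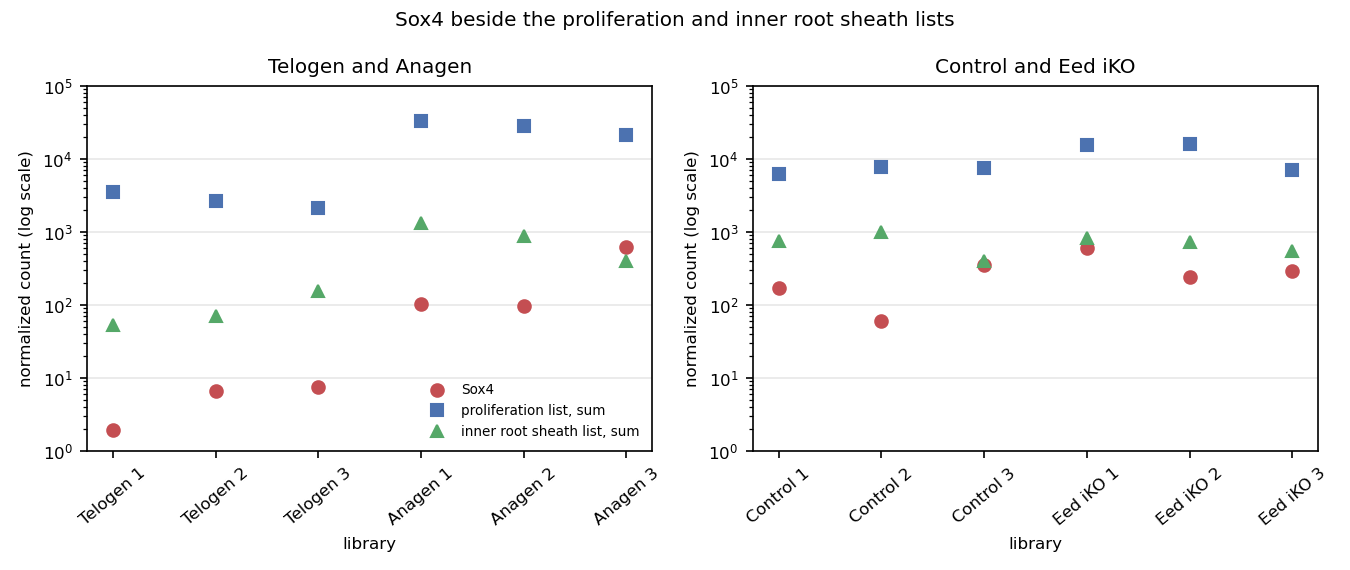
Normalized counts of Sox4 (circles) and the summed proliferation (squares) and inner root sheath (triangles) lists in each library, on a log axis. In the hair cycle table all 3 were higher in anagen, while Sox4 was highest in anagen replicate 3, where both sums were lowest within the group. The bulge, dermal and leukocyte lists and the T-box genes outside the rule, highest there within the group, are not drawn.

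The sequences upstream of the 3 members past the thresholds of the study and of Sox21, the Sox member highest per kb, are shown so that their CpG content can be compared. They come from RefSeq promoter windows (GRCm38.p6) and cover the bases before the gene start in GENCODE vM21, with CpG pairs in capitals. The stretches are chr13:28953714-28953949 for Sox4, chr1:133424378-133424462 for Sox13, chr17:25570687-25570936 for Sox8 and chr14:118237031-118237280 for Sox21, all on the minus strand.
Sox4: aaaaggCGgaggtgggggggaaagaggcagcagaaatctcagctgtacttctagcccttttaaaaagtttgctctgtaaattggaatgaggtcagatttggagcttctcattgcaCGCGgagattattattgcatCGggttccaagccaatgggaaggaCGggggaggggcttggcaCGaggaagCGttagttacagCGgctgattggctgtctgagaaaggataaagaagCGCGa
Sox13: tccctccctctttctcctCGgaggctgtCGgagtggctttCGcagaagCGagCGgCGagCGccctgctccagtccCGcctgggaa
Sox8: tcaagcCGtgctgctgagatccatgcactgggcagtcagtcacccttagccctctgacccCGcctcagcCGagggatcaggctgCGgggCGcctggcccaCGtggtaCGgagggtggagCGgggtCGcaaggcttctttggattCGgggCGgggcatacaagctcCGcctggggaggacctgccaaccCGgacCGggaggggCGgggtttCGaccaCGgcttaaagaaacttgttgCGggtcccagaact
Sox21: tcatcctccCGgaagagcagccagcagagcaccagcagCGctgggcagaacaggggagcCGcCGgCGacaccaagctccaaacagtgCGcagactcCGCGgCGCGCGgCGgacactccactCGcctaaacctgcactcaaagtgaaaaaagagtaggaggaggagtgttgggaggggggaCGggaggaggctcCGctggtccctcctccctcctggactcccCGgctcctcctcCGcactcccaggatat
The stretches held 10 CpG pairs in 236 bases for Sox4, 8 in 85 bases for Sox13, 18 in 250 bases for Sox8 and 17 in 250 bases for Sox21. Over windows of equal length, 300 bases around the RefSeq start, the counts were 12 for Sox4, 40 for Sox13, 21 for Sox8 and 22 for Sox21. For Sox4 and Sox13 the RefSeq and GENCODE starts differ, so their printed stretches are shorter.

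RefSeq promoter windows of 300 bases, 250 before and 50 after the start, were found for 24 of the 34 members. They were 32 windows, as Sox6, Tbx22 and Gata2 had more than a single window each, and Sox6 had the most. None was found for Gata4, Gata6, Sox3, Sox7, Sox17, Sox18, Tbx2, Tbx3, Tbx5 and Tbx15. The members held a median of 21 CpG pairs per gene, against 7 over 27025 genes, and 16 of the 24 lay above the latter. The lowest was Tbx22 with 1.3 and the highest Sox12 with 47. Searched on both strands, the SOX core ACAAAG stood in 8 of the 32 windows, from Sox6, Sox15 and Tbx22, against 18.7% of all windows. ACAATG stood in 4, from Sox5, Sox6 and Tbx22 (12.6%). The GATA core AGATAA stood in 3, from Sox6, Tbx19 and Tbx22 (11.2%). The T-box motif GGTGTGA stood in 2, from Gata2 and Sox6 (3.98%), and the TCF/LEF core CTTTGAT in 1, from Sox6 (3.73%). The TATA box TATAAA stood in 4, from Sox6, Tbx4 and Tbx6 (13.6%). Sox6, with the most windows, was searched most often. None of these letters was in the windows of Sox4, Sox8, Sox13 or Sox21.

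Between control and Eed iKO libraries no member was called. Of the 29 members in the table, 22 were tested (11 Sox, 4 GATA and 7 T-box genes). The 7 not tested were Gata1, Gata2, Sox18, Sox30, Tbx3, Tbx21 and Tbx22. By limma 0 of 22 had an adjusted p under 0.05, against 0.0267% of the 15008 genes tested, and 1 (Sox21) had an unadjusted p under 0.05, against 14.7%. On the recovered reads 0 members were called by edgeR (background 0.0334%) and 0 by DESeq2 (background 5.31%), which gave no adjusted p for 8 of them. The thresholds in the methods of the study were read as a log2 fold change beyond 1.5 and an unadjusted p under 0.05. Applied to the limma fit, 0 members passed them (background 1.75%). A figure legend of the study instead states an absolute fold change of at least 1.5, without naming log2, and an adjusted p under 0.05. The limma count at an adjusted p under 0.05 was 0 at any fold change. The SE of the members ran from 0.14 for Gata3 to 1.51 for Sox6, with a median of 0.65. A modest change in many members, and above all in a low member, may therefore not be detectable at this spread.

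Sox21 had 2231, 1903 and 1702 normalized counts in control and 1677, 1125 and 1376 in Eed iKO libraries. The highest Eed iKO library lay just below the lowest control library. The log2 fold change was -0.49 (SE 0.20, 95% confidence interval -0.93 to -0.05, limma unadjusted p = 0.0313, adjusted p = 0.284), and it was -0.48 by edgeR on the recovered reads (adjusted p = 0.302). Sox21 lies on chromosome 14 at 118233232 to 118237030 (minus strand), and 18.8% of its exon bases overlap the lincRNA Gm4675 on the opposite strand.

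Sox11 was the other of 2 tested members whose groups did not overlap, against 20.2% of all genes. It had 16.65, 28.16 and 17.23 normalized counts in control and 12.9, 15.94 and 5.932 in Eed iKO libraries, a log2 fold change of -0.84 (SE 0.81, limma adjusted p = 0.673).

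Sox4 had 172.1, 60.66 and 358.2 normalized counts in control and 600, 243 and 291.6 in Eed iKO libraries. The groups overlapped through control replicate 3. The log2 fold change was 1.16 (SE 0.61, 95% confidence interval -0.18 to 2.50, limma adjusted p = 0.401), with 0.49 without control replicate 2 and 1.76 without control replicate 3. Sox13 and Sox8, which stood out in anagen beside Sox4, had log2 fold changes of -0.08 (SE 0.36) and 0.84 (SE 1.20). Sox8 had 10.41, 3.25 and 155 normalized counts in control and 37.63, 17.26 and 60.31 in Eed iKO libraries, and on the recovered reads its direction was opposite, at -0.53 by edgeR.

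Gata3 had the smallest SE of the members. It had 5526, 5907 and 6858 normalized counts in control and 5598, 6358 and 5895 in Eed iKO libraries, a log2 fold change of -0.03 (SE 0.14, 95% confidence interval -0.34 to 0.28). Gata4 and Gata5 had log2 fold changes of -0.98 and -0.96 (SE 0.69 for both) and Gata6 had 0.12 (SE 0.50), none past the limma test. Among T-box genes, Tbx18 had 196.3, 146.2 and 224.9 normalized counts in control and 73.12, 74.37 and 210.6 in Eed iKO libraries. Replicates 1 and 2 of the Eed iKO group lay below all control libraries and replicate 3 among them, with a log2 fold change of -0.82 (SE 0.51, limma adjusted p = 0.474). Tbx20 and Tbx5 had -0.60 and -0.46.

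**Figure D4:**
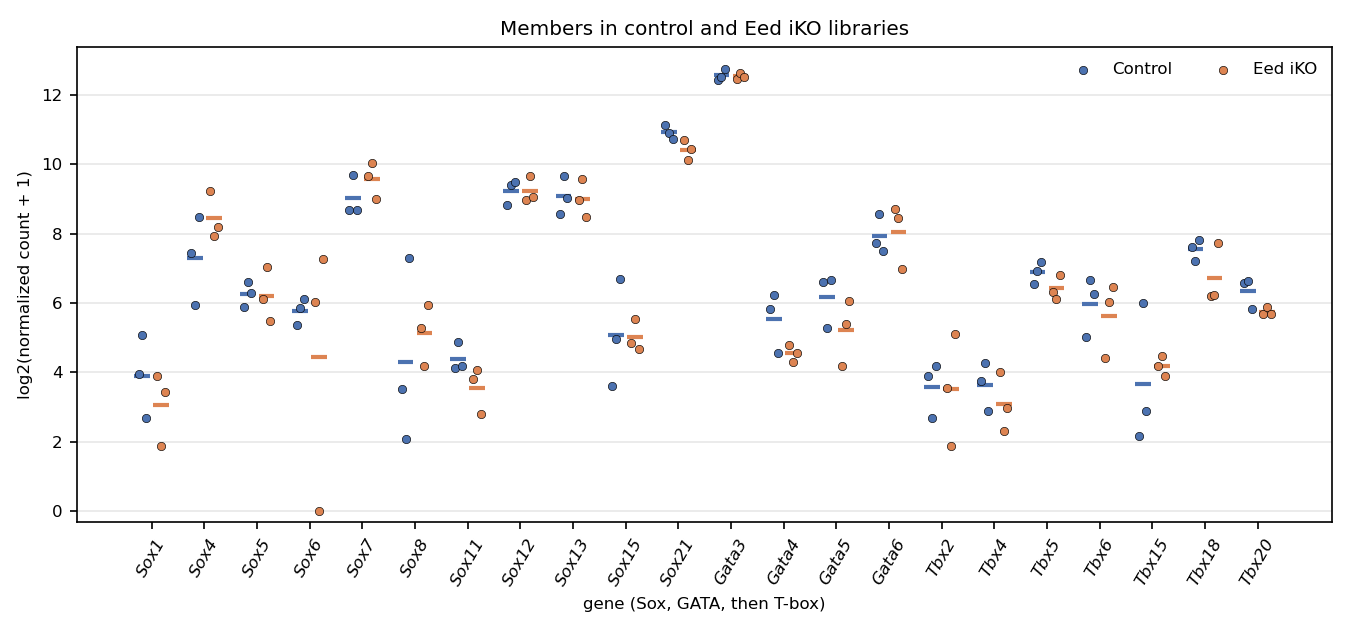
Log2(normalized count + 1) of the 22 tested members in each library of the Eed iKO table, with control in blue, Eed iKO in orange and bars for the means of 3 libraries. The groups of Sox21 and Sox11 did not overlap, Sox6 was listed at 0 in Eed iKO replicate 2, and the libraries of Gata3 lay between 5526 and 6858 normalized counts.

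Counted by sign alone, 17 of 22 log2 fold changes were negative and the median was -0.21, against 50.1% negative over all genes. By edgeR on the recovered reads 15 were negative and by DESeq2 16. With any 1 library left out, 13 to 17 were negative. The median was -0.46 by both edgeR and DESeq2, and -0.15 to -0.47 with any 1 library left out. The Sox median was -0.07, the GATA median -0.50 and the T-box median -0.46, with 8 of 11, 3 of 4 and 6 of 7 negative. Members of a family are not replicates, and these counts are descriptions.

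None of the 8 proliferation genes was called by limma or edgeR, 2 had a limma unadjusted p under 0.05 and 1 was called by DESeq2, with a median log2 fold change of 1.10. Their sum was 15520 and 16290 normalized counts in Eed iKO replicates 1 and 2, 7093 in Eed iKO replicate 3 and 6265 to 7728 in control. Sox4 was highest in Eed iKO replicate 1, and in Eed iKO replicate 2 it lay below control replicate 3. The part of the proliferation list in these Sox4 values was not tested. No other list held a gene called by limma or edgeR in this comparison, and DESeq2 called 1 bulge marker. Against 14.7% of all genes, a limma unadjusted p under 0.05 was found for 2 of 9 tested HMG-box relatives, 2 of 6 GATA cofactors, 4 of 10 bulge markers and 1 gene each of the endothelial, dermal, melanocyte, leukocyte, inner root sheath and sebaceous lists. It was found for 0 of 3 SoxC targets, 0 of 6 suprabasal genes and not for Mga, the 1 T-box gene tested outside the rule. The 4 tested dermal markers had a median log2 fold change of -0.22. Col1a1 had -1.48 (SE 0.52, limma adjusted p = 0.228) and Col1a2 -0.49, while Dcn had 0.34 and Pdgfra 0.04. The dermal list summed to 1691 to 3283 normalized counts in control and 1307 to 1942 in Eed iKO libraries. Col1a2 made up most of these sums, at 1332 to 2421 and 1070 to 1611. The part of this list in the Tbx18 values was not tested.

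Set side by side, the 2 comparisons share no library. Sox4 had a log2 fold change of 4.99 in anagen over telogen, which was called, and of 1.16 in Eed iKO over control, which was not (limma adjusted p = 0.401) and which ran from 0.49 to 1.76 with any 1 library left out. Whether these differ was not tested.

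**Figure D5:**
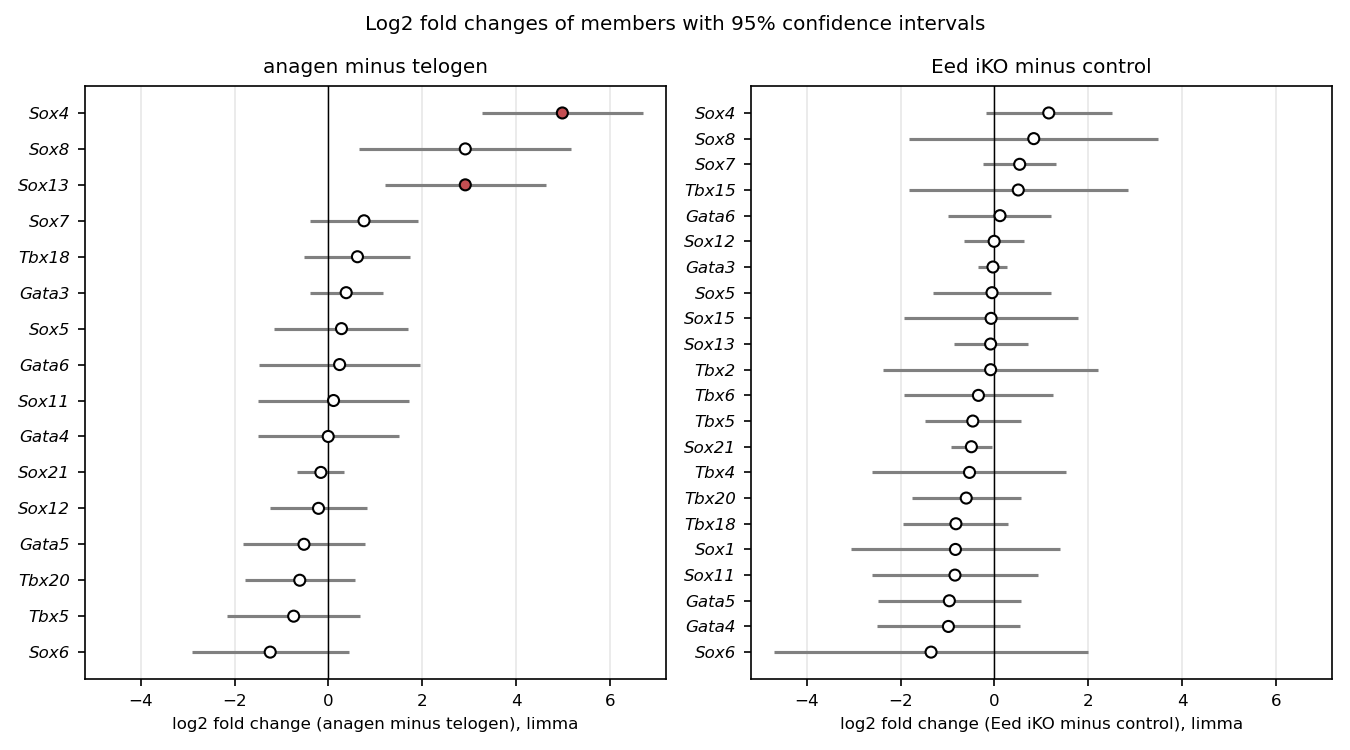
Log2 fold changes of the tested members on the log2(normalized count + 1) scale with 95% confidence intervals, for anagen minus telogen (left) and Eed iKO minus control (right). Filled points passed an adjusted p of 0.05 by limma. Sox4 (4.99) and Sox13 (2.92) were filled on the left and no member on the right.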

How the data were processed

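Per the labels and methods, the authors quantified reads with kallisto 0.42.5 against Gencode vM20 (mm10) and compared groups with DESeq2 (listed as version 3.11). The deposited signal per gene is a count scaled to the library by a DESeq2 size factor. The deposited columns of the authors' own fold changes and p-values were not used. Both tables were normalized separately and tested alone. Values were tested as log2(value + 1) with limma 3.58.1 (eBayes with trend, R 4.3.3) over genes passing filterByExpr at a count minimum of 10, with Benjamini-Hochberg adjustment over all of them. Reads could be recovered for the Eed iKO table only (100% of values above 0 whole within 0.02, although in Eed iKO replicate 3 a read was worth so close to 1 that the step is less certain). They were tested with edgeR 4.0.16, which called 5 genes, and DESeq2 1.42.0, which called 672. Lengths, coordinates and overlaps came from GENCODE vM21 (GRCm38), with levels per kb on the mean length of protein-coding transcripts. The limma fits were also run on simulated counts with known changes, and the outcome is not given here, so nothing is drawn from it. Full values are given for members called, not overlapping or highest per kb, and the rest by counts and ranges. The members and lists were chosen with earlier results of these data known. Alternatives were another pseudocount, no filter, TMM scaling, no trend, a replicate block and each library left out.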

Additional observations from a re-analysis of the deposited data

How the results depend on the processing

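In anagen against telogen, Sox4 was called under all alternatives run. Members called numbered 2, but 1 without a filter on low values (Sox13 adjusted p = 0.0514), 1 without the trend (0.0962), 1 to 2 when each library was left out, and 3 by the thresholds of the study. In the Eed iKO comparison the count was 0 under all alternatives. On longest transcripts, 4 of the 5 highest members per kb in each group were again among the 5 highest. Deviations from the group mean were correlated between libraries of the 2 groups of each table. For equal replicate numbers r was 0.039, 0.0684 and 0.193 in the Eed iKO table, against -0.145 to 0.0769 for unequal numbers. In the hair cycle table it was -0.0348, -0.0711 and -0.0294, against -0.0167 to 0.0554. Whether equal numbers share a batch cannot be told from these values. The replicate block left the counts of calls at 0 and 2. With it the limma adjusted p in the Eed iKO comparison was 0.203 for Sox4 and 0.157 for Sox21.

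In the Eed iKO comparison, on the recovered reads with edgeR and DESeq2, log2 fold changes reversed for Sox8 (-0.53 and -0.55), Sox6 (0.41 and 0.39), Tbx15 (-0.46 and -0.47), Tbx2 (0.38 and 0.37) and Sox5 (0.06 and 0.06), and for Sox12 with edgeR (0.0019). The cause was not tested. With each library left out, the range crossed 0 for Gata3 (-0.10 to 0.06), Gata6 (-0.22 to 0.65), Sox12 (-0.23 to 0.13), Sox13 (-0.36 to 0.21), Sox15 (-0.81 to 0.74), Sox5 (-0.46 to 0.32), Sox6 (-2.76 to 0.87), Sox8 (-0.27 to 2.33), Tbx15 (-0.25 to 1.67), Tbx2 (-0.88 to 0.75) and Tbx6 (-0.82 to 0.27). In the hair cycle it did for Gata4 (-0.45 to 0.36), Gata6 (-0.25 to 1.11) and Sox11 (-0.28 to 0.48). The unknown depth of the hair cycle libraries limits what can be said of its low members.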
